A study of Homo sapiens with 42 samples.

Results

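The skeletal muscle lineage loci were 7 human genes with the sequence around them: MYOD1, MYOG, MYF5, MYF6, MEF2C, DES and CHRNA1, of 19974 protein-coding genes that were given a window in the same way. A locus was the gene and 100 kb on each side of it, and a peak belonged to it when the peak's summit lay inside. The genes are listed by name, and no measured value enters the rule that assigns peaks to them. The members were, however, chosen with earlier results of these data known. Over all samples, 6859 of 9861908 deposited peaks belonged to these loci.

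Open chromatin was measured with ATAC-seq, in which a transposase cuts accessible DNA and inserts sequencing adapters, so that open sites appear as peaks of reads. Established human cancer lines, 7 in number and wild type by their labels, were treated for 4 h with DMSO, the solvent control, or with FHT-1015, a small molecule that inhibits both SMARCA4 and SMARCA2, the ATPase motors of the BAF chromatin remodelling complexes; the labels give no concentration. Each of the 14 groups held 3 biological replicates, 42 samples in all. The lines were RD from a rhabdomyosarcoma, a tumour with skeletal muscle features, 92-1 from a uveal melanoma, 22RV1 from a prostate adenocarcinoma, A375 from a melanoma, DU4475 from an invasive breast carcinoma, HCT116 from a colorectal adenocarcinoma and MV411 from an acute myeloid leukemia. RD is 1 line, sampled at 1 time, and carries its tumour's own changes, so it stands for muscle lineage chromatin only as far as a tumour line can. In a culture measured in bulk, fewer cells with an open site and less opening per cell cannot be told apart.

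Skeletal muscle identity is set by the myogenic regulatory factors, basic helix-loop-helix proteins that bind the E-box, CANNTG, as partners of E proteins. MYF5 and MYOD1 act early and commit cells to the lineage, MYOG drives terminal differentiation and MYF6, also called MRF4, acts in differentiation and in mature fibres. MEF2C is a MADS-box factor that works with them, DES encodes desmin, the intermediate filament of muscle, and CHRNA1 encodes the alpha subunit of the acetylcholine receptor at the neuromuscular junction. Rhabdomyosarcoma cells express myogenic factors but stop short of full differentiation, and BAF complexes are known partners of MYOD1 at muscle genes.

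Peak lists differed in length between samples, and this bears on every count below. Strict peaks, those with a −log10 q of at least 5, numbered 41806 to 48752 in the RD DMSO samples and 13760 to 28354 in the RD FHT-1015 samples. Over all lines they ranged from 1412 to 121774, with the fewest in a 92-1 FHT-1015 sample and the most in an MV411 DMSO sample. RD FHT-1015 replicate 3 had the longest strict list of its group, 28354 against 20960 and 13760. Read depth is not given in the lists. The background pileup that the deposited folds and p-values imply was 0.817, 1.11 and 1.19 in the RD DMSO samples and 1.65, 1.009 and 1.18 in the RD FHT-1015 samples, so the groups overlapped in it. Lists cut to the 20000 strongest peaks by −log10 p, called equal-length lists here, were therefore counted beside the strict lists. The 42 lists all had different numbers of peaks.

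Positions are given on GRCh38. MYOD1 (gene 4654) lies at chr11:17719571-17722136, with OTOG, KCNC1 and SERGEF also in its window. MYOG (gene 4656) is at chr1:203083129-203086012, and its window holds TMEM183A, PPFIA4, ADORA1, MYBPH and CHI3L1. MYF6 (gene 4618) at chr12:80707634-80709474 and MYF5 (gene 4617) at chr12:80716912-80719671 are neighbours, so their windows overlap and nearly every peak counted for one was counted for the other; PTPRQ and LIN7A also reach into them. MEF2C (gene 4208) spans 187.0 kb at chr5:88717117-88904105 and has no other protein-coding gene in its window. DES (gene 1674) at chr2:219418377-219426734 shares its window with 6 genes, among them SPEG, a kinase gene of striated muscle. CHRNA1 (gene 1134) is at chr2:174747592-174764472, between WIPF1 and CHN1.

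In the DMSO samples the muscle loci held more of the strongest peaks in RD than in the other lines for MYOD1, MYOG, DES and CHRNA1, and not for MEF2C, MYF5 or MYF6. This comparison checks the label of the line, and lists of 20000 peaks were used because strict list lengths differed between lines. For DES, the RD DMSO samples held 17, 17 and 14 of these peaks, while the 18 other DMSO samples held between 3 and 7. The MYOD1 locus held 9, 4 and 5 in RD, 3, 4 and 6 in HCT116, and 2 at most in the other 5 lines. At CHRNA1 the numbers were 7, 6 and 6 in RD, 4 in each DU4475 sample, and 3 at most elsewhere. RD and HCT116 thus overlapped at MYOD1, and RD stood above every other DMSO sample at DES and CHRNA1.

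On the log2(number + 1) scale, RD exceeded the mean of the other 6 lines by 2.04 at MYOD1 (SE 0.25, limma adjusted p = 1.019e-06). The difference was 1.89 at CHRNA1 (SE 0.17, limma adjusted p = 1.774e-08) and 1.75 at DES (SE 0.17, limma adjusted p = 4.634e-08). MYOG, with 5, 4 and 6 peaks in RD and 1 to 5 in the other DMSO samples, was higher by 0.84 (SE 0.25, limma adjusted p = 0.00747). So 4 members were called higher, beside 38.1% of the 17204 loci tested. MEF2C was at −0.48 (SE 0.20, limma adjusted p = 0.0514), with 2, 3 and 1 peaks in RD against 8, 6 and 9 in 92-1 and 7, 6 and 6 in MV411. MYF5 and MYF6 had no peak among the 20000 strongest in any RD sample and too few over all samples to be tested.

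**Figure D1:**
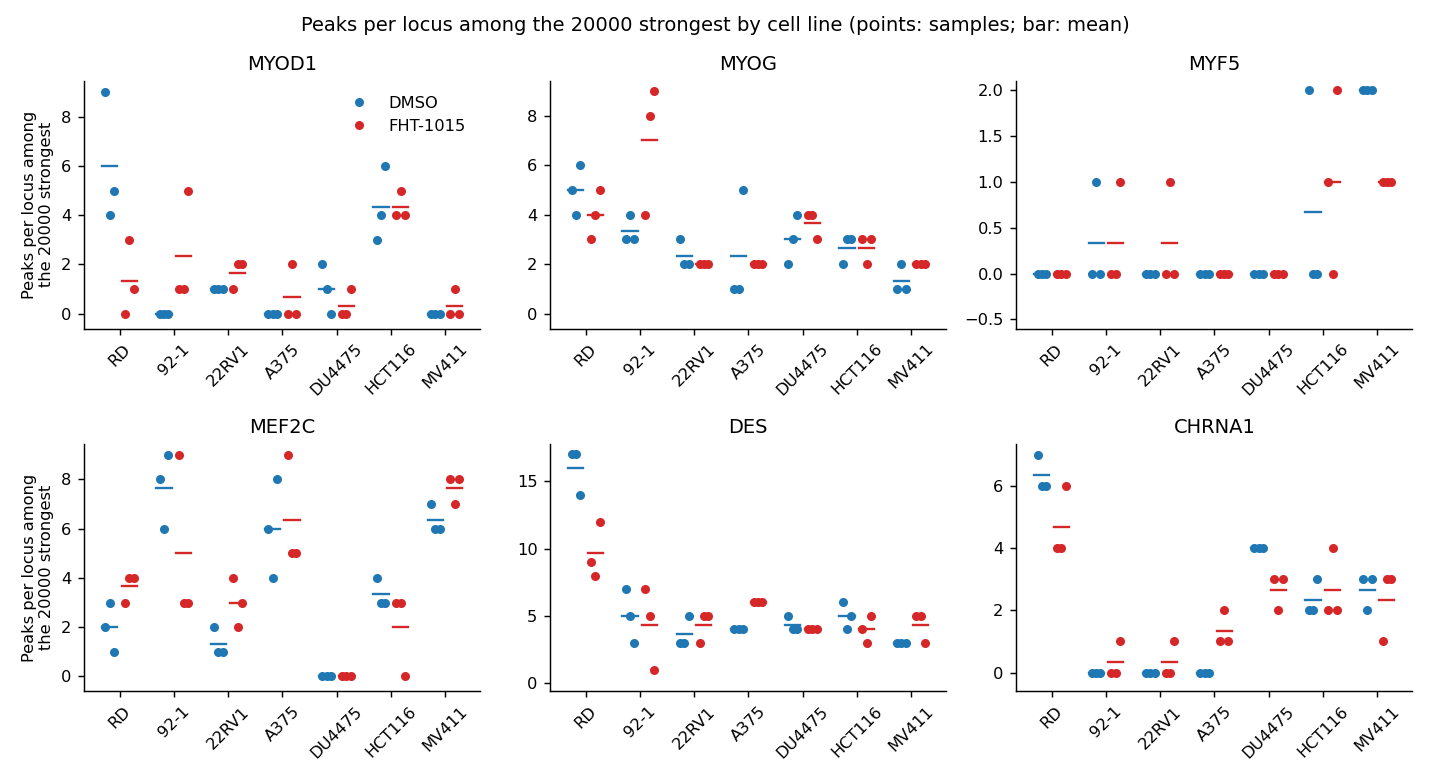
Peaks per locus among the 20000 strongest of each list (vertical axis) by cell line (horizontal axis) for DMSO in blue and FHT-1015 in red; points are samples and short bars group means, and MYF6, which shares nearly all its peaks with MYF5, is not drawn. RD DMSO samples stand highest at DES and CHRNA1, HCT116 overlaps RD at MYOD1, and MYF5 is at 0 in all RD samples.

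RefSeq promoter windows on GRCh38.p14 were matched for 5 of the 7 genes. MYOD1 and DES had no matched window, and the region over the start of MYOD1 is given with its locus below. Of the 5 matched members, MYOG, CHRNA1 and MEF2C had a promoter peak in RD. It was found in no other line for MYOG and shared with other lines for CHRNA1 and MEF2C. These 3 promoter sequences are shown. The 250 bases up to the transcription start are printed 5′ to 3′ on the gene's strand in lower case, with every E-box (CANNTG, which reads as CANNTG on both strands) in capitals.
MYOG, chr1:203086013-203086262, minus strand: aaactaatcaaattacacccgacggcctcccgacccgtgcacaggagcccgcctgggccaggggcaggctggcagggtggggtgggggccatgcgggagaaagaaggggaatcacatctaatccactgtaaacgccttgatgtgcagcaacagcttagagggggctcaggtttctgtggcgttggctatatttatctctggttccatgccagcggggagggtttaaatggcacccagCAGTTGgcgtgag
CHRNA1, chr2:174764473-174764722, minus strand: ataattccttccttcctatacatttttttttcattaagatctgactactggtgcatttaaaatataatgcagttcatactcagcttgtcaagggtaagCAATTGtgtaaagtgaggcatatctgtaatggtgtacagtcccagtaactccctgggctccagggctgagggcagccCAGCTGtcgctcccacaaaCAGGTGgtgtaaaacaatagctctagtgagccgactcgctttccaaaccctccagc
MEF2C, chr5:88883185-88883434, minus strand: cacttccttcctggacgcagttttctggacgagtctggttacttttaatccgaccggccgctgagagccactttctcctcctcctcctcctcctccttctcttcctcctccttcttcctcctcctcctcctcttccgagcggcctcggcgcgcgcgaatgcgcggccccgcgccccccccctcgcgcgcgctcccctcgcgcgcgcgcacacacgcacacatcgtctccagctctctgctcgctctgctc
The MYOG window holds 1 E-box, CAGTTG, whose first base is 13 bases before the start. That of CHRNA1 holds 3: CAATTG begins 152 bases before the start, CAGCTG begins 75 bases before it and CAGGTG begins 56 bases before it. The MEF2C window, which is 1 of 7 listed for that gene, has none. Of 35116 promoter windows of the same length, 61.8% hold at least 1 CANNTG, 14% hold CAGCTG and 17.5% hold CAGGTG on either strand, so the presence of an E-box alone sets no promoter apart.

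At the MYOG promoter the peak was found in RD only: 4 of the 42 samples had a strict peak over these 250 bases, and all were RD samples. Its −log10 q was 17.3, 14.7 and 9.29 in the DMSO samples. In the FHT-1015 samples there was no peak in replicate 1, one with a −log10 q of 1.11 in replicate 2, and one of 7.60 in replicate 3. The CHRNA1 promoter peak had values of 25.7, 37.96 and 31.3 with DMSO and of 20.03, 7.16 and 38.1 with FHT-1015, strict in all 6 samples; among the other DMSO samples it was strict in the 3 of DU4475 and the 3 of MV411. The MEF2C promoter peak had 8.36, 10.98 and 9.92 with DMSO and 5.44, 4.24 and 13.02 with FHT-1015; it was strict in 26 of the 42 samples, among them every DMSO sample of 22RV1, A375 and MV411. These values rank peaks within 1 list and are set side by side only as a description. Over the MYF5 and MYF6 promoter windows no RD sample had a peak of any strength.

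FHT-1015 was followed by fewer strict peaks at every one of the 7 loci in RD. MYOD1 held 11, 10 and 11 strict peaks in the DMSO samples and 0, 1 and 6 in the FHT-1015 samples (10.7 ± 0.577 against 2.33 ± 3.22, mean ± SD, n = 3 each). MYOG, which acts later in the program, went from 14, 15 and 18 to 3, 3 and 8 (15.7 ± 2.08 against 4.67 ± 2.89, n = 3 each). At both loci replicate 3 kept more peaks than replicates 1 and 2, and the groups did not overlap.

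The neighbouring MYF5 and MYF6 loci each held 3, 2 and 3 strict peaks with DMSO and 0 in each FHT-1015 sample. The counts were the same at both genes because their windows overlap, and with all treated samples at 0 no fold change is given. MEF2C held 10, 14 and 9 with DMSO and 3, 3 and 7 with FHT-1015 (11 ± 2.65 against 4.33 ± 2.31, n = 3 each). The structural gene DES had the most peaks, 27, 26 and 25 with DMSO and 9, 7 and 15 with FHT-1015 (26 ± 1.00 against 10.3 ± 4.16, n = 3 each). CHRNA1 went from 11, 11 and 10 to 4, 4 and 7 (10.7 ± 0.577 against 5 ± 1.73, n = 3 each). None of these groups overlapped, and the treated sample with the most peaks was replicate 3 at MEF2C, DES and CHRNA1 too.

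At the 5 members MYOD1, MYOG, MEF2C, DES and CHRNA1, every DMSO sample exceeded every FHT-1015 sample, beside 59.2% of 17258 loci tested over the genome. An exact permutation test, two-sided, gave p = 0.1 for each of these 5 loci, the smallest p that 3 samples against 3 allow. MYF5 and MYF6 count the same peaks in RD. They reached the mean of at least 1 strict peak that the fit required through their DMSO samples alone. Their direction was set by that filter, and no test is given for them. In limma fitted over all tested loci with Benjamini-Hochberg adjustment, the other 5 members fell, beside 36.2% of all loci. The fitted change on the log2(number + 1) scale was −2.27 at MYOD1 (SE 0.68, adjusted p = 0.0459), −1.66 at MYOG (SE 0.35, adjusted p = 0.0255) and −1.31 at DES (SE 0.27, adjusted p = 0.0236). It was −1.23 at MEF2C (SE 0.34, adjusted p = 0.0392) and −0.995 at CHRNA1 (SE 0.24, adjusted p = 0.0300). The median change over all loci was −0.86. These 5 fitted changes were larger in size, that of CHRNA1 only slightly. The scale understates changes at loci with few peaks, so the median is not a like-for-like reference.

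**Figure D2:**
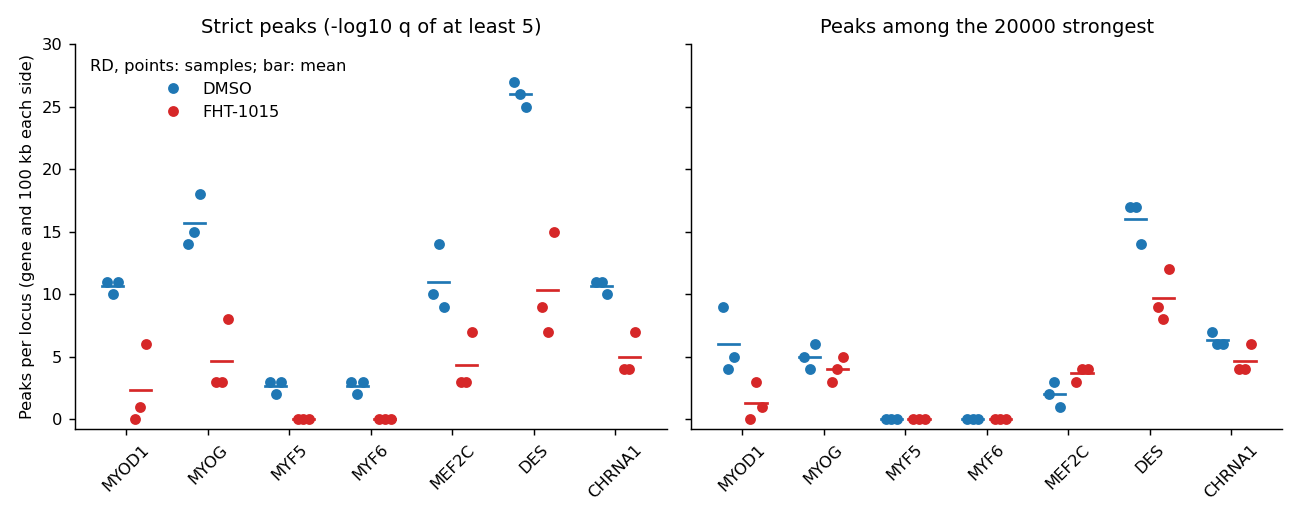
Peaks per locus in RD (vertical axis) for the 7 genes (horizontal axis), strict peaks on the left and peaks among the 20000 strongest on the right; points are the 3 samples of DMSO (blue) and FHT-1015 (red), short bars their means. On the left the treated samples lie below the DMSO samples at all 7 loci; on the right this holds for MYOD1 and DES only.

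These calls changed when single samples were left out and when the length of the lists was taken into account. Fits without a sample also have fewer samples. At MYOD1 the fitted change was −2.25, −2.32 and −2.25 without DMSO replicates 1, 2 and 3. It was −1.64, −2.14 and −3.04 without FHT-1015 replicates 1, 2 and 3. Why the calls changed was not tested. Of the 5 members tested in both groups, DES alone stayed called without FHT-1015 replicate 2 (limma adjusted p = 0.0366), none did without FHT-1015 replicate 1 or any 1 DMSO sample, and all 5 did without FHT-1015 replicate 3. Loci called lower over the genome numbered 4376 without FHT-1015 replicate 2, 440 without replicate 1 and 11862 without replicate 3. They numbered 183 to 620 without 1 DMSO sample, against 6241 with all samples. When the counts were taken as a share of each strict list, no member was called, beside 524 loci called lower, and CHRNA1 turned to 0.17 (limma adjusted p = 0.595). After the pileups were drawn down to an equal background in the 6 samples, 3 members were called, MYOD1, MYOG and DES, beside 6153 loci called lower. MYF5 and MYF6 then had too few peaks to be tested.

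In lists of equal length, MYOD1 and DES were lower in all 3 treated samples than in any DMSO sample, and the other loci overlapped. MYOD1 held 9, 4 and 5 of the 20000 strongest peaks with DMSO and 0, 3 and 1 with FHT-1015, a fitted change of −1.74 (SE 0.57, limma adjusted p = 0.223). DES held 17, 17 and 14 against 9, 8 and 12, a change of −0.68 (SE 0.17, limma adjusted p = 0.152). Such a separation was seen at 4.79% of the 15671 loci tested. MYOG, with 5, 4 and 6 against 3, 4 and 5, was at −0.27 (limma adjusted p = 0.525), and CHRNA1, with 7, 6 and 6 against 4, 4 and 6, was at −0.39 (limma adjusted p = 0.315). MEF2C went the other way, from 2, 3 and 1 to 3, 4 and 4, at 0.69 (limma adjusted p = 0.305), and its sign turned in lists of 10000 and of 50000 peaks. MYF5 and MYF6 were at 0 in all 6 samples. No member passed the test in limma; MYOD1 and DES had an unadjusted p under 0.05, and over the genome 0.0893% of loci were called lower.

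At DES and MYOG most of the strict peaks that were missing after treatment lay away from gene ends. A peak counted as at a gene end when its summit was within 1 kb of either end of any protein-coding gene. At DES, peaks farther away numbered 23, 22 and 21 with DMSO and 5, 5 and 11 with FHT-1015, while those at gene ends were 4 in each DMSO sample and 4, 2 and 4 after treatment. No RD sample had a strict summit inside DES itself. The MYOG locus held 8, 9 and 9 peaks away from gene ends with DMSO and 0, 0 and 4 with FHT-1015, beside 6, 6 and 9 against 3, 3 and 4 at gene ends. At CHRNA1 the distant peaks went from 2, 5 and 3 to 0 in each treated sample. MYOD1 lost both kinds, with distant peaks at 7, 6 and 7 against 0, 0 and 3, and peaks at gene ends at 4 in each DMSO sample against 0, 1 and 3. Over the whole RD lists the distant strict peaks numbered 18746 to 23523 with DMSO and 2928 to 9323 with FHT-1015, and those at gene ends 23060 to 25229 and 10832 to 19031.

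Single sites were followed as regions of 500 bp, set in common for all samples. A region was taken as lost when a strict peak covered at least 100 bp of it in all 3 DMSO samples and in no FHT-1015 sample, as kept when it was strict in all 6, and as gained in the opposite case. With 3 samples a group these are counts without a test. The member loci held 45 regions that were strict in all 3 RD DMSO samples, of which 19 were lost, 10 kept and 16 strict in 1 or 2 treated samples; none was gained. Of these 45 regions, 16 share a DMSO peak with the region beside them. Of the lost regions, 5 had no deposited peak at any strength in the treated samples, and 5 had a weak peak in all 3.

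Around MYOD1, 7 regions were strict with DMSO, 3 were lost and none was kept. All 3 lost regions lie below the gene in coordinates, between OTOG and MYOD1 and inside no protein-coding gene, and none of them was open in another line. The first, chr11:17687868-17688367, is 31.5 kb below the gene, with a −log10 q of 14.1, 17.5 and 10.4 against 1.72, 0.340 and 3.93. At 19.9 kb below, chr11:17699399-17699898 had 12.6, 5.42 and 6.30 with DMSO and no peak in any treated sample. The nearest, chr11:17714219-17714718 at 5.1 kb, had 14.8, 8.98 and 11.4 against 1.78, 0.340 and 2.25. The strongest region of the locus covered the start of the gene, chr11:17719123-17719622, with 20.9, 27.5 and 17.6 with DMSO and 4.44, 6.97 and 8.20 with FHT-1015, so it stayed strict in 2 treated samples. Among the other lines 22RV1 alone had it in at least 2 DMSO samples. A further region 69.1 kb below the gene, chr11:17650238-17650737, had 15.0, 16.3 and 14.6 with DMSO and 0.918, no peak and 5.40 with FHT-1015.

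At MYOG, 9 regions were strict with DMSO, 3 were lost and 1 was kept. The kept one, chr1:203007124-203007623, is at an end of TMEM183A, 75.8 kb below MYOG, is open in all 6 other lines, and had 26.7, 27.6 and 22.2 with DMSO and 19.2, 9.004 and 20.03 with FHT-1015. A region inside PPFIA4, chr1:203038149-203038648, 44.7 kb below MYOG and open in no other line, had 17.3, 11.4 and 22.1 with DMSO, no peak in treated replicates 1 and 2 and 1.57 in replicate 3. Farther in PPFIA4, chr1:203051731-203052230 went from 22.4, 13.02 and 15.9 to 1.71, no peak and 12.4. The other lost regions, chr1:203127536-203128035 and chr1:203128086-203128585, share 1 peak at an end of ADORA1, with 9.03, 9.19 and 6.38 against 1.73, 1.84 and 3.38. The region at an end of PPFIA4, chr1:203026246-203026745, went the other way between replicates: it is open in all 6 other lines, had 12.2, 21.1 and 10.8 with DMSO and 9.67, 7.35 and 4.49 with FHT-1015, and was weak in treated replicate 3 alone.

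The single region at MYF5 and MYF6, chr12:80778070-80778569 near LIN7A, was lost, with 7.36, 8.07 and 6.61 with DMSO and no peak, no peak and 1.99 with FHT-1015. MEF2C had 7 regions, 3 lost and 1 kept. The strongest was a pair of regions over 1 peak 55.9 to 56.4 kb below the gene; chr5:88660964-88661463 had 41.96, 57.0 and 47.8 with DMSO and 15.7, 7.60 and 23.8 with FHT-1015 and was kept, and it is open in 5 other lines. The adjoining chr5:88660438-88660937 was not covered by the treated peak in replicate 2. The lost regions were weaker: chr5:88690909-88691408, 26.0 kb below the gene, had 8.18, 10.2 and 11.04 against 1.94, no peak and 1.62. Inside MEF2C, chr5:88785694-88786193 had 7.28, 9.73 and 5.63 against 1.11, no peak and 2.70, and chr5:88746542-88747041 had 6.84, 6.01 and 7.30 against 1.11, no peak and 3.64.

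DES had the most regions, 16, of which 8 were lost and 4 kept. The 4 kept regions form 2 pairs, each over 1 peak, and all are open in at least 4 other lines. One pair is inside DNPEP (chr2:219387629-219388128), with 46.8, 69.2 and 47.1 against 35.6, 28.6 and 57.9. The other is at an end of SPEGNB (chr2:219497772-219498271 and chr2:219498304-219498803), with 76.6, 78.3 and 65.8 against 45.1, 21.9 and 68.4. Lost regions clustered inside SPEG: chr2:219460457-219460956 had 21.8, 26.6 and 30.1 with DMSO and no peak in any treated sample, and chr2:219453633-219454132 had 18.9, 27.9 and 24.7 against 0.307 in replicate 1 and no peak in the others. Neither was open in another line. The region beside the latter, chr2:219452834-219453333, lies over the same DMSO peak, was covered by a treated peak of 9.46 in replicate 3 and is open in A375, so the loss there held for only part of the site. The strongest region counted as lost, chr2:219404324-219404823 at 13.8 kb below DES, had 29.0, 51.8 and 38.3 with DMSO and 3.81, 0.947 and no peak with FHT-1015. The region beside it, over the same DMSO peak, was covered by a treated peak of 10.7 in replicate 3, so here too only part of the site was lost.

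At CHRNA1, 4 of 5 regions were kept. They lie over 2 peaks, one at its own promoter and one at an end of WIPF1 (chr2:174682049-174682548), where values were 24.0, 24.9 and 15.4 with DMSO and 10.3, 11.1 and 15.1 with FHT-1015. The promoter regions are chr2:174764274-174764773 and chr2:174764806-174765305, over the peak whose values are given with the sequence. The lost region, chr2:174807472-174807971 inside CHN1, 43.2 kb above CHRNA1, had 13.03, 22.2 and 19.0 with DMSO and 1.21, 1.21 and 1.55 with FHT-1015, and is open in no other line.

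**Figure D3:**
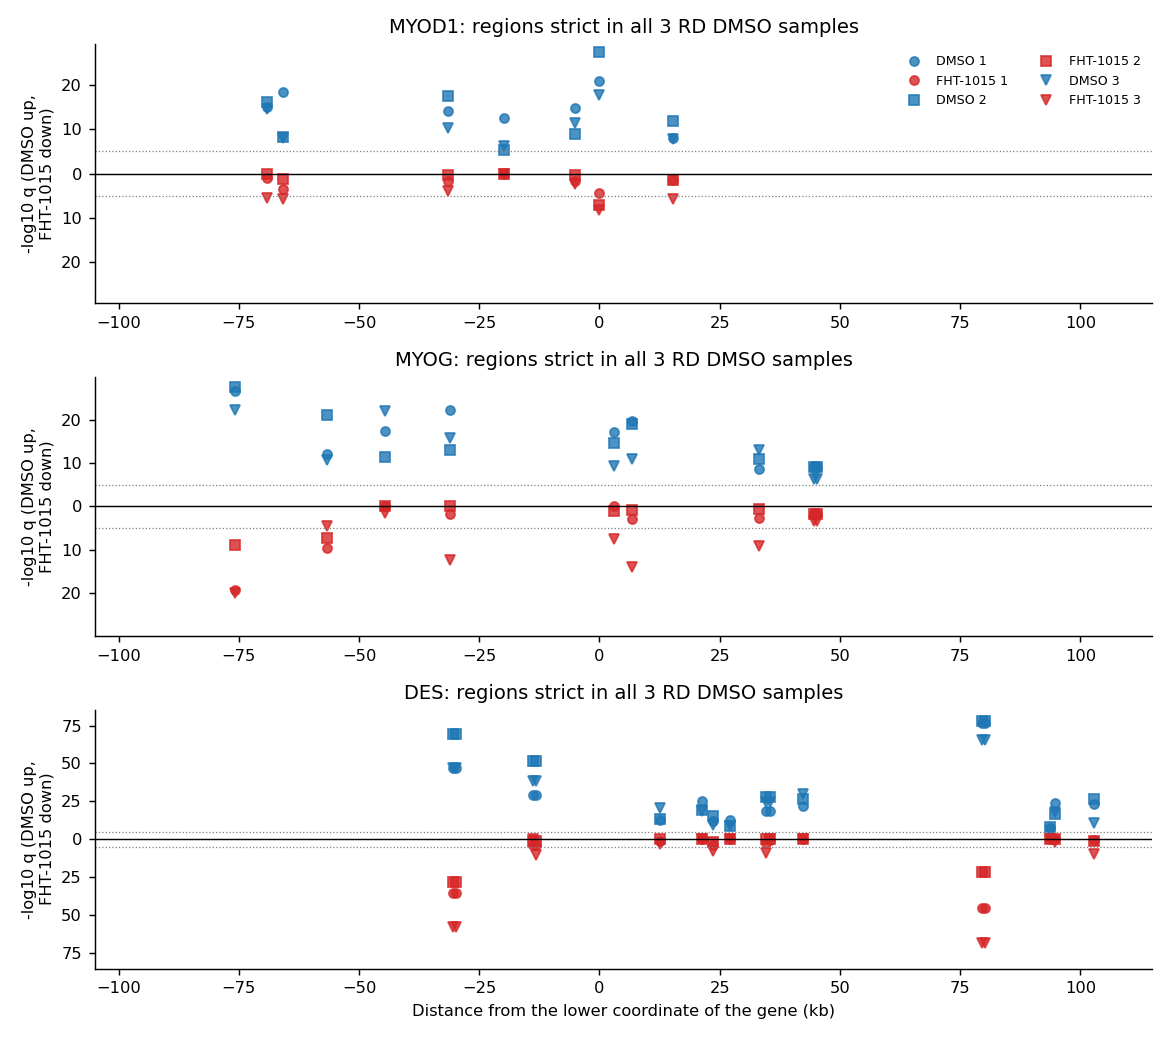
−log10 q of the deposited peak over each region strict in all 3 RD DMSO samples (vertical axis; DMSO upward in blue, FHT-1015 downward in red, marker shape gives the replicate, no peak is drawn at 0, dotted lines at 5) against the distance from the lower coordinate of the gene in kb (horizontal axis) for MYOD1, MYOG and DES. Near 31.5, 19.9 and 5.1 kb below MYOD1 the treated samples lie inside the dotted lines, while the 2 kept pairs at DES reach beyond 20 in every treated sample.

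The loss at the member loci was then set beside the genome by class of region. Of all 45 member regions 42.2% were lost, beside 20.8% of the 25773 RD regions strict in all 3 DMSO samples. With all deposited peaks 11 of 70 were lost, 15.7% beside 11.6%, and with the 20000 strongest peaks 7 of 21, 33.3% beside 7.07%. Within 1 kb of a gene end 2 of 13 were lost, beside 7.27% over the genome. Farther away and open in at least 1 other line, 4 of 14 were lost, beside 30.3%. Start sites inside a gene do not count as gene ends, so this class is not free of promoters. It holds chr5:88882926-88883425, over the MEF2C promoter shown above, and the lost chr5:88785694-88786193, which overlaps another MEF2C promoter window. Farther away and open in no other line, 13 of 18 were lost, beside 59.3%. Open in another line means strict in at least 2 of its 3 DMSO samples. The member regions were more often of the last class, 18 of 45, than RD regions in general, 3437 of 25773. Each of the 10 kept member regions was open in another line, beside 11227 of the 11439 kept RD regions over the genome. Lost member regions were also weaker to begin with: the median of the lowest DMSO −log10 q was 8.98 for lost and 33.8 for kept regions.

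**Figure D4:**
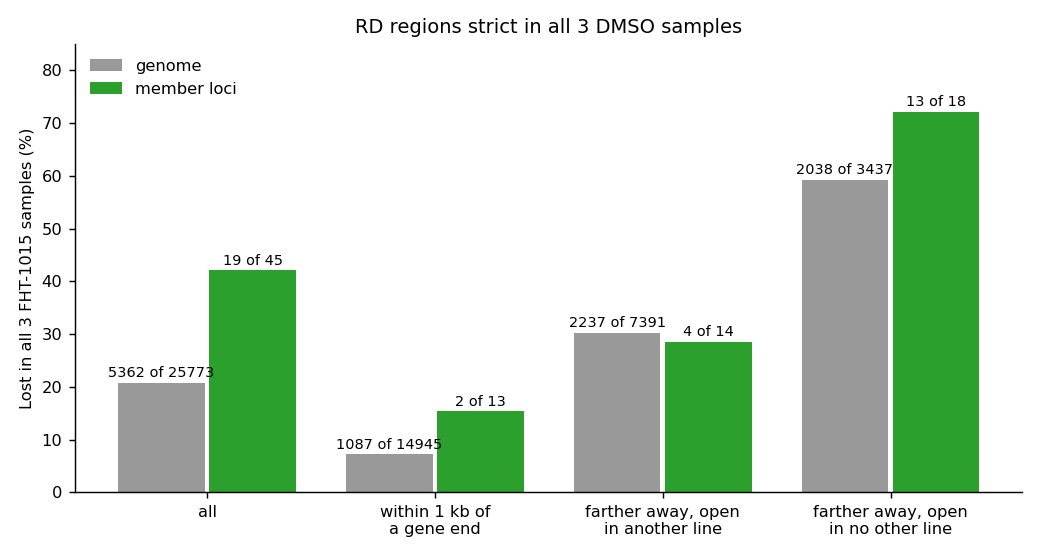
Share of RD regions strict in all 3 DMSO samples that were strict in no FHT-1015 sample (vertical axis, percent) by class of region (horizontal axis), for the genome in grey and the member loci in green; numbers give lost of all regions and the bars carry no error. Member shares are 15.4%, 28.6% and 72.2% in the 3 classes beside 7.27%, 30.3% and 59.3% for the genome, and 42.2% beside 20.8% over all regions.

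The treated samples of RD did not lose sites equally. Of the 45 member regions 13, 13 and 25 were strict in FHT-1015 replicates 1, 2 and 3, which is 28.9%, 28.9% and 55.6%. Over all RD regions the shares were 63.0%, 48.1% and 75.5%. The member share was the lower one in each of the 3 treated samples. Without FHT-1015 replicate 3, 30 of the 45 regions would count as lost, beside 34.0% over the genome.

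In the other lines the same loci were counted as a reference. In MV411, 6 members fell in limma, all but DES, beside 78.7% of all loci: MYOD1 went from 8, 7 and 8 strict peaks to 2, 5 and 4 (−0.95, SE 0.26, adjusted p = 0.0138), and MYF5 from 10, 11 and 9 to 3, 5 and 4 (−1.15, SE 0.18, adjusted p = 0.00157). In 22RV1, MYOG fell from 8, 9 and 8 to 4, 4 and 6 (−0.74, SE 0.19, adjusted p = 0.0286), and MEF2C from 9, 16 and 13 to 6, 5 and 5 (−1.08, SE 0.21, adjusted p = 0.0145), beside 27.9% of loci. MYOD1 there went from 10, 9 and 9 to 5, 8 and 6 (adjusted p = 0.0700). Leaving out any 1 sample of 22RV1 left at most 1 of its 2 members called, and leaving out any 1 of MV411 left 4 to 6.

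No member was called in 92-1, A375, DU4475 or HCT116, where limma called 0.0802% of loci lower in 92-1 and 0% in each of the other 3. At an unadjusted p under 0.05, 1561, 287, 3616 and 559 loci were lower in these 4 lines. DU4475 had MYOG at 14, 12 and 10 against 6, 8 and 7 (adjusted p = 0.142), without overlap. HCT116, whose MYOD1 locus was rich in strong peaks, had 4, 5 and 6 there with DMSO and 7, 5 and 4 with FHT-1015. In 92-1 the samples of 1 group differed widely, as with DES at 17, 8 and 2 against 7, 0 and 0, and 7127 loci, among them 2 members, were called without its FHT-1015 replicate 1. A fit with a replicate block called 8516 loci lower in 92-1, among them 2 members, against 14 loci without it. Of regions strict in all 3 DMSO samples of their own line, the member loci lost 0 of 6 in 92-1, beside 40.3% over the genome; 6 of 30 in 22RV1, beside 26.4%; 0 of 16 in A375, beside 7.49%; 2 of 21 in DU4475, beside 6.65%; 0 of 8 in HCT116, beside 5.85%; and 17 of 52 in MV411, beside 32.7%.

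**Figure D5:**
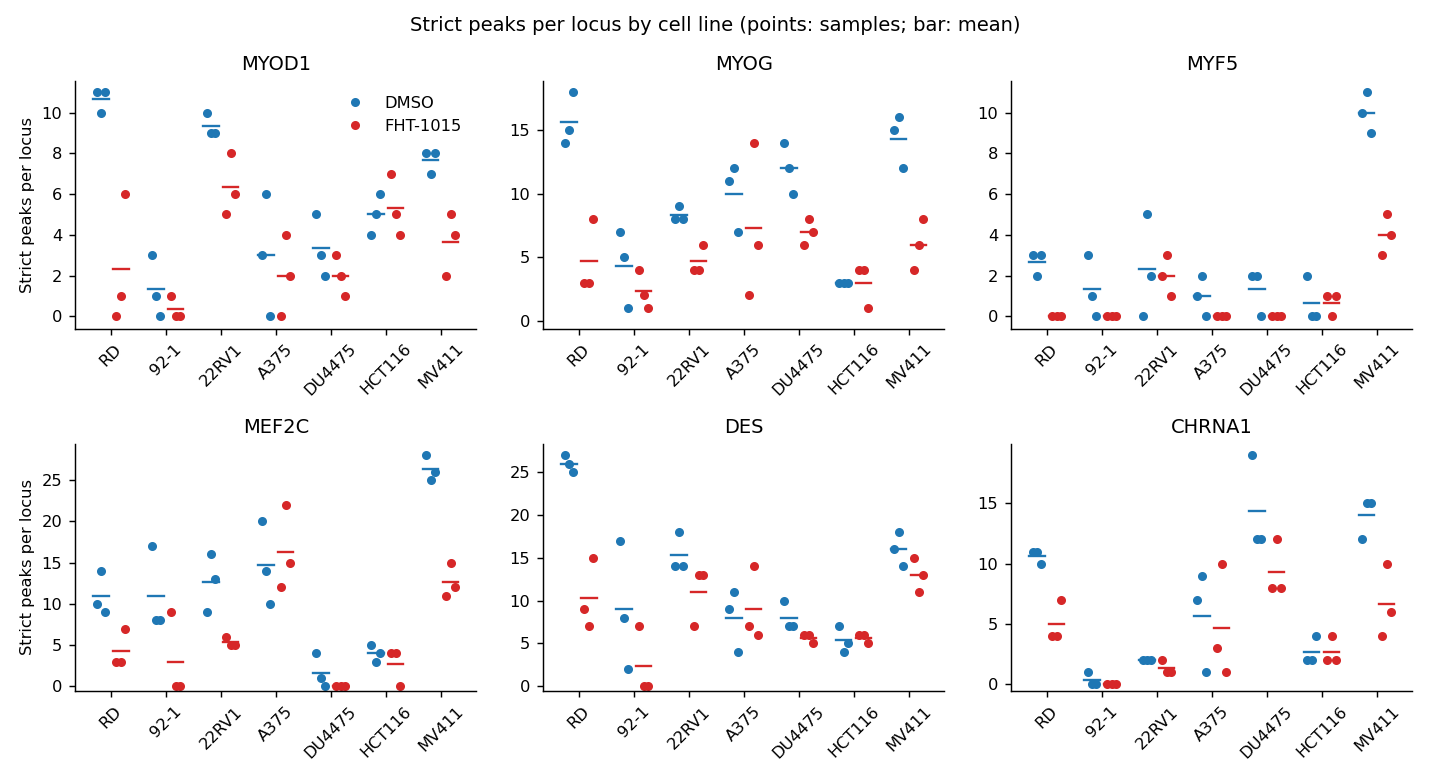
Strict peaks per locus (vertical axis) by cell line (horizontal axis), DMSO in blue and FHT-1015 in red; points are samples, short bars group means, and MYF6, whose counts equal those of MYF5 in all lines but MV411, is not drawn. RD and MV411 show treated samples below all DMSO samples at MYOD1, MYOG, MYF5, MEF2C and CHRNA1, whereas HCT116 samples overlap at all 6 loci.

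The difference between RD and the other lines was tested itself, as the RD change minus the mean change of the other 6 lines over all 42 samples. With strict peaks no member passed, beside 0.457% of 19262 loci called lower; MYOD1 came closest at −1.79 (SE 0.59, limma adjusted p = 0.149), and MYF6, MYF5 and MYOG also had an unadjusted p under 0.05, the first pair with RD treated samples at 0. With equal-length lists MYOD1 passed at −2.12 (SE 0.47, limma adjusted p = 0.0241), beside 0.306% of 17296 loci. DES was at −0.75 (limma adjusted p = 0.344), CHRNA1 at −0.61 (limma adjusted p = 0.490), MYOG at −0.50 (limma adjusted p = 0.595) and MEF2C at 0.75 (limma adjusted p = 0.462). The MYOD1 call was lost without RD DMSO replicate 1 (adjusted p = 0.135), RD DMSO replicate 3 (0.0588), RD FHT-1015 replicate 1 (0.152) or the MV411 line (0.0547), with windows of 50 kb (0.0782) and with a replicate block (0.0609). In lists of 50000 peaks it was at −0.94 (adjusted p = 0.237) while DES was called at −0.96 (adjusted p = 0.0276), and in lists of 10000 MYOD1 had too few peaks to be tested. Without 92-1, MYOD1 and DES were called in both kinds of list. The loci called lower over the genome then rose from 88 to 3471 in strict lists and from 53 to 406 in equal-length lists.

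Other muscle genes in RD are given from lists that were drawn up for this tissue. Of 12 regulators and partners of the myogenic factors tested, 6 fell in strict peaks and none rose, beside 36.2% of all loci, with a list median of −1.36. PAX7 and LBX1 are 2 of these 6 and passed the filter through their DMSO samples alone; of the 10 others 4 fell. In equal-length lists 0 of 10 were called and the median had the opposite sign, 0.35. PAX7, the marker of muscle stem cells, had 9, 10 and 8 strict peaks with DMSO and 0, 0 and 1 with FHT-1015. LBX1, a factor of migrating muscle precursors, had 6, 6 and 5 against 0 in each treated sample. PAX3, whose protein acts upstream of MYOD1 in the embryo, went from 21, 19 and 22 to 6, 3 and 8 (limma adjusted p = 0.0187), and MEF2A from 15, 12 and 13 to 5, 3 and 7 (limma adjusted p = 0.0260). LBX1 and PAX7 were also the listed genes whose RD change differed from the mean of the other lines in strict peaks, by −2.78 (limma adjusted p = 0.00855) and −2.51 (limma adjusted p = 0.0283), values that depend on the pseudocount because their treated RD samples are at or near 0.

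Of 20 sarcomere genes, which encode the contractile apparatus, 12 fell and none rose, beside 36.2% of all loci, with a median of −1.01. Of these 20, MYH2 and TNNI2 passed the filter through their DMSO samples alone, and of the 18 others 10 fell. In equal-length lists 0 of 17 were called, with a median of −0.13. TNNI1, slow troponin I, went from 22, 23 and 15 to 1, 1 and 5 (limma adjusted p = 0.0171), and its neighbour TNNT2, whose window overlaps, from 18, 17 and 14 to 1, 1 and 4 (limma adjusted p = 0.0140). MYBPH, which lies in the MYOG window and shares peaks with it, went from 8, 14 and 12 to 0, 0 and 5 (limma adjusted p = 0.0377). MYH2, a fast myosin heavy chain, had 5, 6 and 2 against 0, 0 and 2. TNNI1 also differed from the other lines in equal-length lists, by −1.57 (limma adjusted p = 0.0482).

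Of 13 genes of the neuromuscular synapse and muscle membrane, 7 fell and none rose, beside 36.2% of all loci, with a median of −1.11. MUSK passed the filter through its DMSO samples alone, and of the 12 others 6 fell. In equal-length lists 1 of 12 was called, beside 0.0893% of all loci, and the list median was 0.0463. MUSK, the kinase that organises the synapse, went from 7, 6 and 4 to 0, 0 and 2, and RAPSN, which anchors the receptor, from 9, 13 and 8 to 5, 1 and 4 (limma adjusted p = 0.0487). CAV3, muscle caveolin, went from 7, 7 and 6 to 1, 1 and 3 (limma adjusted p = 0.0234). CDH15, M-cadherin, went from 15, 14 and 16 to 5, 9 and 6 (limma adjusted p = 0.0244). The 1 call in equal-length lists was CAV3, at −1.41 (SE 0.11, limma adjusted p = 0.0429). Marker genes of other tissues in RD fell in 1 of 6 tested for epithelium, 0 of 5 for melanocytes, 3 of 6 for myeloid cells and 2 of 5 for prostate, with medians of −0.73, −0.80, −0.77 and −0.95. Without the genes that passed the filter through their DMSO samples alone, 0 of 5, 0 of 4, 3 of 6 and 1 of 4 fell. These lists were chosen with results known, and their medians stand beside −0.86 for all loci.

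Over the 42 samples, the loci whose numbers of strong peaks were most like those of MYOD1 were FHAD1 (Pearson r = 0.768), WDR11 (0.713), CCDC60 (0.710), CHST15 (0.693) and AKR1E2 (0.684). For MYOG they were HS2ST1 (0.760), ACBD7 (0.751), CD2 (0.738), NMT2 (0.732) and CFAP144 (0.728). Loci whose windows overlap a member were left out. The samples share lines and treatments, so these are descriptions of likeness without a test. FHAD1 held 10 such peaks on average in RD DMSO samples and 6 in RD FHT-1015 samples, and HS2ST1 held 4 and 4.33.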

How the data were processed

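ATAC-seq peak lists of 42 samples were used, 1 list per sample, with peaks called in each sample separately, as the deposited lists show. Bowtie2, Picard, MACS2, limma and HOMER and the build hg38 are named in the submitters' processing notes, without versions or settings. The deposited peaks carry a fold enrichment (a ratio), a −log10 p and a −log10 q, which the authors' peak caller gave and which describe a peak within its own list. The lists are lenient, so peaks with a −log10 q of at least 5 (strict) and the 20000 strongest by −log10 p (equal-length) were counted.

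Peaks whose summit fell in a gene or within 100 kb were counted for 19974 protein-coding genes (RefSeq, GRCh38.p14). limma 3.58.1 in R 4.3.3 was fitted with a trend to log2(number + 1) for genes with a mean of at least 1 peak, without a replicate block, and p-values were Benjamini-Hochberg adjusted over all genes tested; fold changes on this scale understate changes of low numbers. An adjusted p under 0.05 was called. The fit was tested on simulated data. Regions of 500 bp needed an overlap of at least 100 bp. The background pileup was solved from each peak's fold and p-value. The labels call the replicates biological without naming separate cultures, so p-values measure the spread between these samples, which may be partly technical. The named genes were the 7 members, listed muscle genes past the threshold (at most 4 per list, by size), the 5 most like loci, and per locus the 3 strongest regions and at most 3 lost ones. Members, lists and rules were chosen with earlier results of these data known.

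Alternatives were other thresholds, list lengths, windows and pseudocounts, no filter, no trend, a replicate block, thinned pileups, shares of the list, and leaving out each replicate or a line.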

Additional observations from a re-analysis of the deposited data

Results flagged for a closer look

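Differences between RD and the mean of the other 6 lines in the change with FHT-1015 passed the limma test at 4 of the loci named here. MYOD1 differed by −2.12 in equal-length lists (SE 0.47, limma adjusted p = 0.0241; over the alternatives the adjusted p ran from 0.00848 to 0.237), with 9, 4 and 5 peaks in RD DMSO samples and 0, 3 and 1 in RD FHT-1015 samples. LBX1 differed by −2.78 (limma adjusted p = 0.00855; 4.52e-05 to 0.997 over the alternatives) and PAX7 by −2.51 (limma adjusted p = 0.0283; 0.00494 to 0.997) in strict peaks. TNNI1 differed by −1.57 in equal-length lists (limma adjusted p = 0.0482; 0.0042 to 0.228). At MYOD1 and TNNI1 all 3 treated RD samples were below all 3 DMSO samples in strict peaks, beside 59.2% of 17258 loci tested. For these 2 loci this is another measure than the lists in which they passed. LBX1 and PAX7 passed in the strict peaks themselves, so a separation in the same counts adds no support. In the RD comparison LBX1 and PAX7 passed the filter on low numbers through their DMSO samples alone. Strict lists were shorter in the treated RD samples, and the part of this in the differences was not tested. Groups of 3 samples were not searched for single outlying samples.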

How the results depend on the processing

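In RD strict peaks 7 members were called lower. MYF5 and MYF6 are among them through the filter alone and count the same peaks, so their calls are no test of direction. With these 2 included, 2 members were called at a −log10 q of at least 10, 1 with all deposited peaks, 1 with windows of 50 kb and 1 with 10 kb. Thinned pileups gave 3, shares of the list 0, a fit of all 42 samples 4, and leaving out 1 replicate 2 to 7. Other settings gave 5 to 7. For the other 5 members, the calls on leaving out 1 replicate are given in the Results. With a replicate block 0 members and 0 loci were called, against 6241 loci. Same-numbered RD samples correlated at 0.00603, −0.0570 and −0.0687, and not every sample correlated best with its own number. Whether the numbers in RD mark samples handled together was not tested. The count of all loci lower ran up to 11862, without FHT-1015 replicate 3, and 3062 loci were higher as a share of the list, against 1. In equal-length lists 0 members were called under every alternative run.

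For RD minus the other lines in equal-length lists, against 1 member: 0 with 10000 peaks, where MYOD1 could not be tested, 1 with 50000 peaks, where it was DES and not MYOD1, 0 with 50 kb windows, 0 with the replicate block, 0 without MV411, 2 without 92-1, and 0 to 1 on leaving out 1 replicate; loci called lower ran from 17 to 406, against 53. In strict lists, against 0 members: 1 at a −log10 q of at least 10, 1 with the replicate block, 2 without 92-1, and 0 to 1 on leaving out 1 replicate; loci called lower ran from 1 to 3471, against 88. For RD against other lines in DMSO, 3 to 5 members were higher, against 4, and 1 was lower, against 0, with 50 kb windows, without the filter and without the trend, and 0 to 1 on leaving out 1 replicate.

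Regions lost numbered 11 of 70 with all deposited peaks and 7 of 21 with the 20000 strongest, against 19 of 45, and 19 to 30 on leaving out 1 replicate; 2 were gained with all deposited peaks, against 0.

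Signs turned as follows. CHRNA1 was at 0.17 and CDH15 at 0.0713 as a share of the list, and CHRNA1 against the other lines was at 0.0844 with all deposited peaks. MEF2C in equal-length RD lists was at −0.20 with 10000 and −0.41 with 50000 peaks, against the other lines at −0.0510 and −0.13, and in DMSO at 0.63 with 50000. In 22RV1, MYOG was at 0.25 at a −log10 q of at least 2, and MYF5 and MYF6 ran from −0.56 without DMSO replicate 1 to 0.74 without DMSO replicate 2, and were at −0.0975 without FHT-1015 replicate 2. The block left 6 members called in MV411 and 1 in 22RV1. In 92-1 it raised the members called from 0 to 2 and the loci lower from 14 to 8516. Same-numbered 92-1 samples correlated at 0.176, 0.0152 and 0.145. DMSO replicates 1 and 3 each correlated best with the FHT-1015 sample of their own number. DMSO replicate 2 correlated best with FHT-1015 replicate 1 (0.0399). Whether the numbers in 92-1 mark samples handled together was not tested. The cause of these changes was not tested, beyond the fewer samples in the fits that leave one out. Depth is unknown, and weak sites may be missed in short lists.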
